A study of Mus musculus with 16 samples.

Results

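The levels of 10 genes of the fibroblast growth factor (FGF) and platelet-derived growth factor (PDGF) systems were described in developing mouse heart valves, out of 13964 genes in the expression table. They are the ligands Fgf2, Fgf10, Pdgfa and Pdgfb and the receptors Fgfr1, Fgfr2, Fgfr3, Fgfr4, Pdgfra and Pdgfrb, taken by name. All 10 had a row in the table and all 10 passed the low-value filter of the test. The study sequenced RNA of aortic and pulmonary valves cut out by laser from C57BL/6 embryos at E14.5 (E, embryonic day). Its title places the work in Notch signalling during valve formation, and the comparison between genotypes asks what the loss of the Notch ligand gene Jag1 changes in each valve.

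The 4 groups held 4 libraries each: WT (wild-type) aortic valve, mutant aortic valve, WT pulmonary valve and mutant pulmonary valve. The mutants were Jag1flox;Nkx2.5-Cre embryos, in which a Cre recombinase expressed from Nkx2.5, a gene of heart progenitors and their progeny, acts on a floxed Jag1 allele. Cells without a history of Nkx2.5 activity keep Jag1 in such embryos, and the labels do not say whether WT embryos carried either allele. Aortic libraries were library batch 1 and pulmonary libraries batch 2. Within a valve, WT and mutant libraries with the same replicate number came from the same litter. The 8 pairs came from 5 litters, 3 of which gave both an aortic and a pulmonary pair, so pairs and means over both valves are not all independent. The labels do not say how many embryos gave a library, so p-values measure the spread between these libraries. The recovered depth was 4.56 to 8.68 M reads per library (M, megareads). Values are normalised counts, that is CPM (reads scaled to a common total) after scaling between libraries.

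FGF ligands bind 4 receptor tyrosine kinases, Fgfr1 to Fgfr4, together with heparan sulphate on the cell surface, and signal through the Ras-MAP kinase and PI3 kinase relays. PDGF-A chains act through the receptor Pdgfra, whereas PDGF-B chains bind both Pdgfra and Pdgfrb. Pdgfra is a known marker of connective tissue progenitors, including cushion mesenchyme, and Pdgfrb marks pericytes and other mural cells as well as mesenchyme. Fgf10 acts mainly through a splice form of Fgfr2, and Fgfr4 is a receptor known from developing skeletal muscle.

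Libraries of the same group differed in make-up, and the levels of several of the 10 genes differed along with it. The skeletal muscle markers (17 of 18 in the table) had a mean log2(value + 1) of 0.403 to 1.94 in 6 libraries and 4.53 to 6.44 in the other 10. The 6 were WT aortic 2 and 4, mutant aortic 4, WT pulmonary 2 and 4 and mutant pulmonary 4. The myogenic factor gene Myod1 was 0 to 0.367 in the 6 and 8.54 to 18.7 in the 10. The cushion gene Tbx20, which encodes a cardiac T-box factor, read 98.0 to 123 in 5 libraries and 549 to 1744 in the other 11. The 5 were WT aortic 1 and 3, mutant aortic 1, WT pulmonary 1 and mutant pulmonary 1, and all 5 belonged to the 10 higher in skeletal muscle markers. Valve mesenchyme markers were present throughout (11 of 11 in the table, Vcan 355 to 4628) but uneven. They summed to 1990 to 2875 in the 5 libraries low in Tbx20 and to 5379 to 12182 in the other 11. Tbx20 is itself one of these markers, so part of that split is built in. Endothelial and endocardial markers summed to 260 to 397 in those 5 and to 805 to 2404 in the other 11. Jag1 itself was 33.3 ± 17.1 in WT and 9.38 ± 2.39 in mutant aortic libraries, and 18.5 ± 5.34 in WT and 5.68 ± 4.63 in mutant pulmonary libraries (SD, n = 4), without overlap in either valve.

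The promoters shown are those of Pdgfra, the most abundant receptor of the set, and of the ligand Fgf10 with its main receptor Fgfr2. Each is the 250 bases before the RefSeq start site (GRCm38.p6), 5′ to 3′ on the gene's strand. RefSeq gave 9 windows for 7 of the 10 genes. These 3 are shown because they alone held no annotated exon base. Capitals mark E-boxes (CANNTG, bound by basic helix-loop-helix factors) and the core of the site of RBPJ, the DNA-binding partner of Notch (TGGGAA or, on the other strand, TTCCCA), which do not overlap here.
Pdgfra, chr5:75152001-75152250, plus strand: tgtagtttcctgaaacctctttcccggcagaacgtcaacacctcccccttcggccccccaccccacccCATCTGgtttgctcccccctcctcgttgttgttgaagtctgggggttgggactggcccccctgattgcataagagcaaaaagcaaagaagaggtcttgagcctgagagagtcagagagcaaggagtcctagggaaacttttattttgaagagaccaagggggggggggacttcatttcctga
Fgfr2, chr7:130266809-130267058, minus strand: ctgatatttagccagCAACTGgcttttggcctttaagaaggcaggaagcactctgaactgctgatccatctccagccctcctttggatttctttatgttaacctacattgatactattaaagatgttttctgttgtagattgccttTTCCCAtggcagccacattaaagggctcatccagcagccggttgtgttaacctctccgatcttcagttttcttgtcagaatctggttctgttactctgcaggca
Fgf10, chr13:118714449-118714698, plus strand: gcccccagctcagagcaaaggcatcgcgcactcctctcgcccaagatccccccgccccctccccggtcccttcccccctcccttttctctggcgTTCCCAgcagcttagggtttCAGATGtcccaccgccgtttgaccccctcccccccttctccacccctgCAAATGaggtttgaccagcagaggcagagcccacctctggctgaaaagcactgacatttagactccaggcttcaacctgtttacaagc

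The Pdgfra window held 1 E-box and no RBPJ core, the Fgfr2 window held 1 of each, and the Fgf10 window held 2 E-boxes and 1 RBPJ core. Over 32851 promoter windows, searched on both strands, 66.2% held an E-box and 21.6% an RBPJ core. The T-box half-site GGTGTG, found in 16.3% of windows, was in none of the 3. These matches describe letters in the windows only.

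Per kb of annotated exon, the receptors Pdgfra, Fgfr2, Pdgfrb and Fgfr1 had the highest levels of the 10 genes and the ligands Fgf10 and Fgf2 the lowest. The mean over all 16 libraries was 21.8 normalised counts per kb for Pdgfra, which lay at the 88.4th percentile of 13787 genes with a gene model. Fgfr2 and Pdgfrb followed at 14.7 each, then Fgfr1 at 7.44, Pdgfa at 7.003 and Fgfr3 at 5.79. Pdgfb was at 2.10, Fgfr4 at 1.77, Fgf10 at 1.63 and Fgf2, at the 6.69th percentile, at 0.584. The Fgfr2 gene model spans chr7:130162451-133123350, across many other genes. It shares 3.04% of its exon bases with Ctbp2, so its length, level per kb and percentile are less certain. When the 4 groups were ordered by mean for each gene, every group's range overlapped that of its neighbour in the order.

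**Figure D1:**
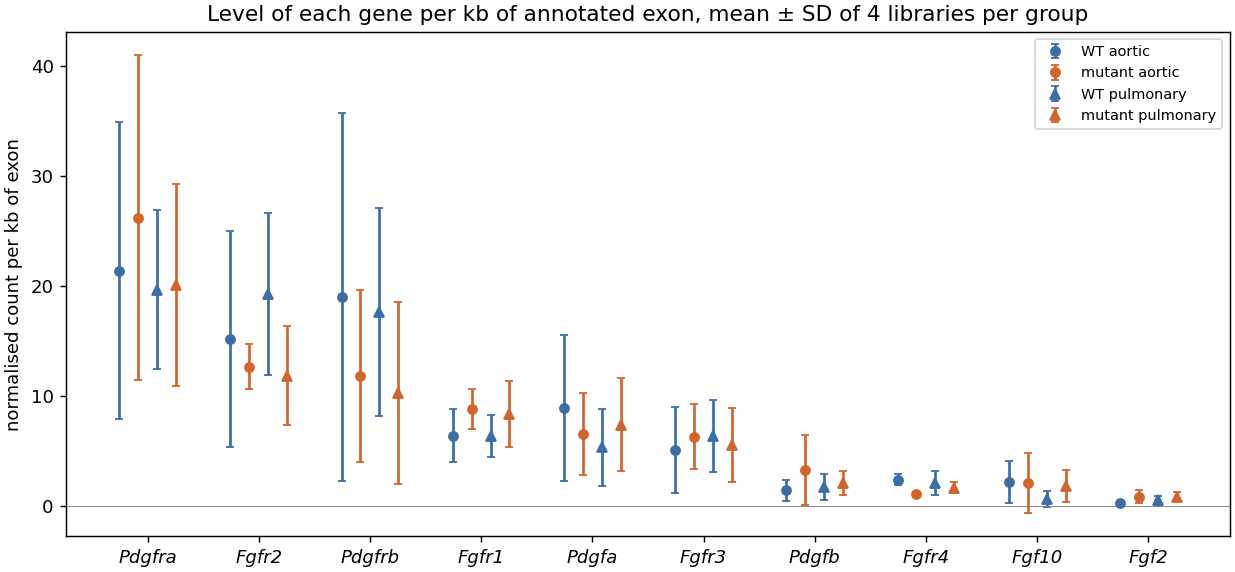
Normalised count per kb of annotated exon (y axis) for each gene (x axis), as the mean ± SD of 4 libraries in each of the 4 groups (colour for genotype, shape for valve). The 3 receptors on the left, Pdgfra, Fgfr2 and Pdgfrb, have the highest means, and the ligands Fgf10 and Fgf2 on the right the lowest.

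None of the 10 genes was called different between genotypes once all genes were accounted for. In limma, 0 of the 10 passed an adjusted p of 0.05 in the aortic or the pulmonary valve, where 0% of 13963 tested genes passed. The targeted gene Jag1, lower in the mutants without overlap in either valve, missed it too. Missing this threshold therefore does not show that a gene was unchanged. At an unadjusted p under 0.05, 1 of the 10 (Fgfr4) was called in the aortic valve, against 1.4% of all genes, and 0 in the pulmonary valve, against 3.13%. For the mean of both valves it was 1 of the 10 (Fgf2), against 2.79%. With the litter as a replicate block these counts were 3 in the aortic valve (Fgf2, Fgfr1 and Fgfr4, against 2.96% of genes), 2 in the pulmonary valve (Fgf10 and Fgfr2, against 6.23%) and 2 for the mean (Fgf2 and Fgfr1, against 5.49%). The lowest of their adjusted p was 0.793 (limma). edgeR's quasi-likelihood test and DESeq2 also called 0 of the 10 after adjustment. In each valve 5 of the 10 log2 differences lay above 0 and 5 below. Their median was 0.17 in the aortic valve and 0.18 in the pulmonary valve, where the median of all genes was 0.020 and 0.0087. In these bulk samples, fewer cells of a type and less RNA per cell cannot be told apart.

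**Figure D2:**
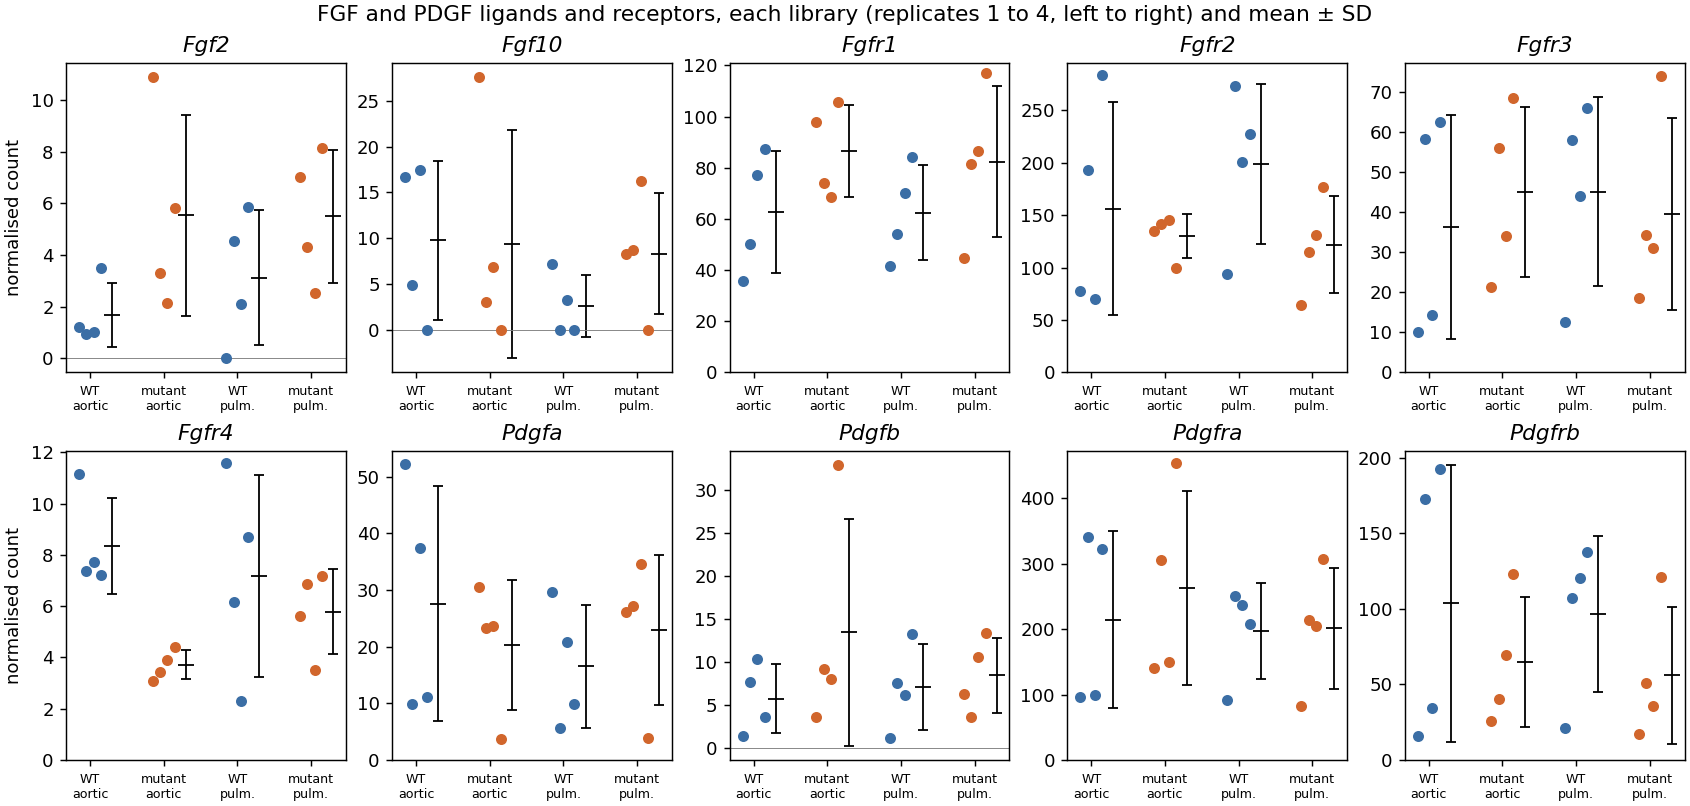
Normalised count (y axis) of each gene in every library, by group (x axis). Points are replicates 1 to 4 from left to right, and the black bar is the mean ± SD. Fgfr4 in the aortic valve is the 1 panel and valve where the genotypes do not overlap.

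Fgf2, a ligand with broad activity on mesenchyme and endothelium, was low throughout. The WT aortic libraries read 1.22, 0.940, 1.04 and 3.51 and the mutant aortic libraries 10.9, 3.29, 2.14 and 5.83. The WT pulmonary libraries read 0, 4.54, 2.08 and 5.87 and the mutant pulmonary libraries 7.01, 4.29, 2.52 and 8.15. The mutant library was the higher of its litter pair in 4 of 4 aortic pairs, as for 5.99% of all genes, and in 7 of 8 pairs over both valves, as for at least that many pairs in 4.13% of genes. The ranges overlapped in both valves.

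The mean log2 difference of Fgf2 over both valves was 1.04 (SE 0.42, 95% interval 0.16 to 1.92, limma unadjusted p = 0.0236, adjusted p = 1.00). It was 1.197 (SE 0.59) in the aortic and 0.89 (SE 0.59) in the pulmonary valve. The pulmonary value was 0.31 (limma unadjusted p = 0.567) without WT pulmonary library 1, which read 0, and 0.18 without the libraries low in Tbx20. The aortic value was 0.61 without the latter. The counts behind it were small, from 0 to 88 reads, and the library at 0 allows a value of up to 0.512 (3 reads, counting error only). Without the 5 libraries low in Tbx20, the mean difference was 0.39 (limma unadjusted p = 0.374). Nudt6, which lies antisense to Fgf2 and shares 9.44% of its exon bases, read 5.94 ± 3.33 in WT and 11.8 ± 4.49 in mutant aortic libraries (SD, n = 4). The labels do not state strand-specific counting, and the part of Nudt6 reads in the Fgf2 values was not tested.

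Fgf10, a mesenchymal ligand that signals to Fgfr2, was at 0 in 5 of the 6 libraries lowest in skeletal muscle markers. It read 16.7, 4.86, 17.5 and 0 in WT aortic, 27.6, 2.98, 6.81 and 0 in mutant aortic, 7.16, 0, 3.24 and 0 in WT pulmonary and 8.30, 8.72, 16.2 and 0 in mutant pulmonary libraries. The sixth, WT aortic 2, read 4.86, and the other 10 libraries read 2.98 to 27.6. A count of 0 allows up to 0.367 to 0.526 in those libraries. The log2 difference was -0.28 (SE 1.14) in the aortic and 1.37 (SE 1.14) in the pulmonary valve, the widest errors of the 10 genes.

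Pdgfa, which encodes the ligand of Pdgfra, divided the libraries in the same way. It read 52.1, 9.87, 37.3 and 11.1 in WT aortic, 30.4, 23.3, 23.7 and 3.70 in mutant aortic, 29.7, 5.61, 20.8 and 9.91 in WT pulmonary and 26.1, 27.2, 34.6 and 3.95 in mutant pulmonary libraries. Its values spanned 3.70 to 11.1 where skeletal muscle markers were lowest (6 libraries), against 20.8 to 52.1 elsewhere. All 6 lay below all 10, as for 3.68% of all genes. The genotype difference was -0.40 (SE 0.74) in the aortic and 0.37 (SE 0.74) in the pulmonary valve. An antisense gene, 6330403L08Rik, shares 26.1% of the Pdgfa exon bases and was low, at most 6.49 in a library.

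Pdgfb, a ligand made by endothelium that recruits mural cells, was low and uneven. It read 1.49, 7.68, 10.4 and 3.69 in WT aortic, 3.71, 9.24, 8.07 and 33.0 in mutant aortic, 1.19, 7.61, 6.25 and 13.3 in WT pulmonary and 6.31, 3.62, 10.6 and 13.5 in mutant pulmonary libraries. Mutant aortic library 4, the highest, stood well above the rest, and the ranges overlapped in both valves. The log2 difference was 0.92 (SE 0.67) in the aortic and 0.38 (SE 0.67) in the pulmonary valve.

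**Figure D3:**
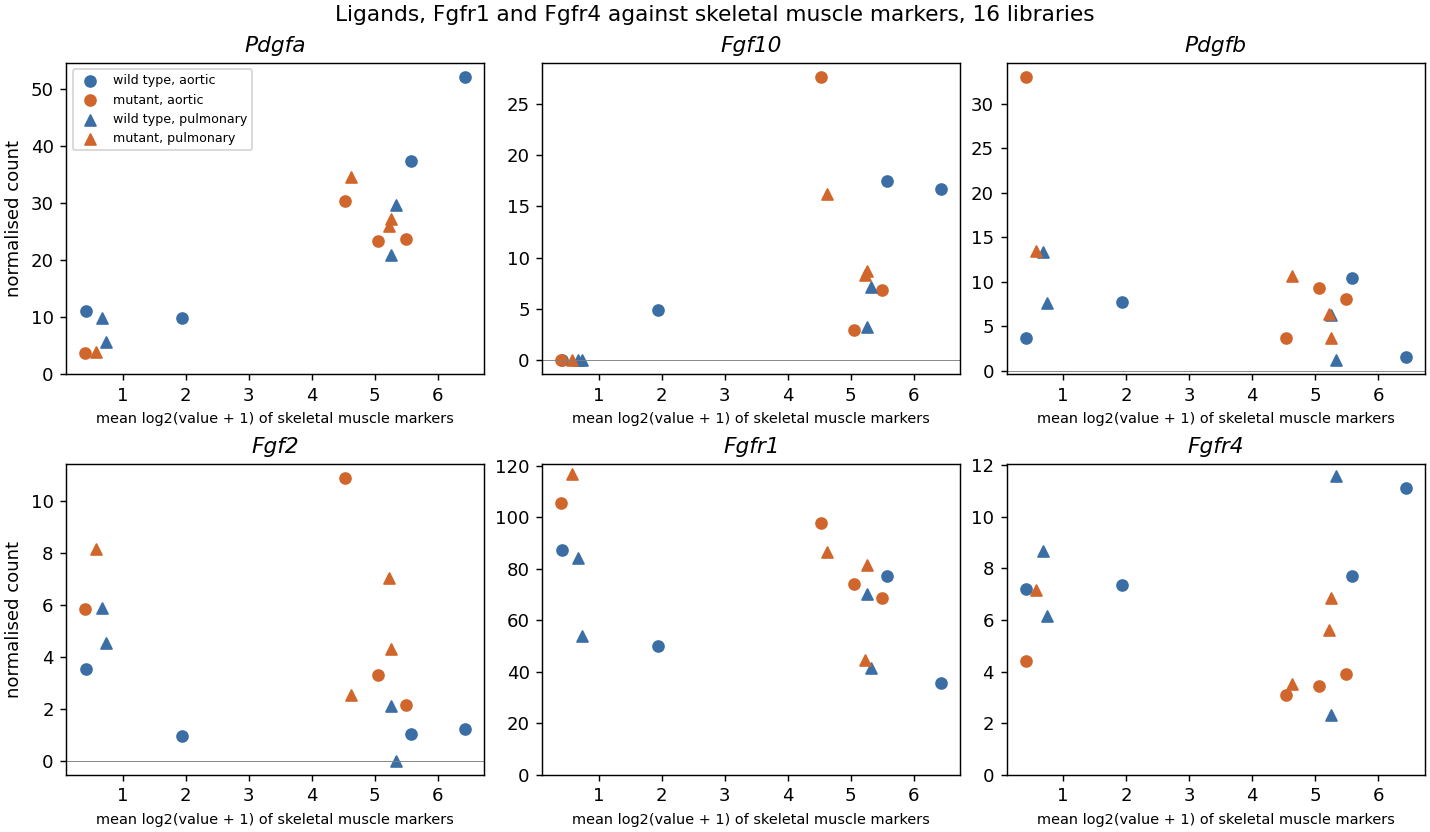
Normalised count (y axis) of the 4 ligands, Fgfr1 and Fgfr4 in each of the 16 libraries against the mean log2(value + 1) of the skeletal muscle markers (x axis), with genotype as colour and valve as shape. Pdgfa is 3.70 to 11.1 in the 6 libraries on the left and 20.8 to 52.1 in the 10 on the right, and Fgf10 is at 0 in 5 of the 6 on the left.

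Fgfr1, the FGF receptor typical of mesenchyme, varied least of the 10 genes over the libraries. It read 35.6, 50.1, 77.3 and 87.2 in WT aortic, 97.8, 74.1, 68.6 and 106 in mutant aortic, 41.6, 54.0, 70.2 and 84.2 in WT pulmonary and 44.8, 81.5, 86.6 and 117 in mutant pulmonary libraries. The coefficient of variation over all 16 libraries was 32.0%. The mutant was the higher of its litter pair in 7 of 8 pairs and in 4 of 4 pulmonary pairs, as for 6.67% of genes in that valve. The mean log2 difference was 0.44 (SE 0.23, 95% interval -0.039 to 0.93, limma unadjusted p = 0.0691, adjusted p = 1.00). With the litter as a replicate block, the unadjusted p was 0.0172 and the adjusted p 0.856.

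Fgfr2, the receptor of Fgf10, read 78.1, 193, 70.4 and 284 in WT aortic and 135, 141, 146 and 99.3 in mutant aortic libraries. It read 94.0, 273, 201 and 228 in WT pulmonary and 64.7, 115, 131 and 177 in mutant pulmonary libraries. The aortic mutants lay inside the WT range, whereas the pulmonary mutant was the lower of its litter pair in 4 of 4 pairs, as for 6.9% of genes. The log2 difference was -0.033 (SE 0.42) in the aortic and -0.69 (SE 0.42, 95% interval -1.58 to 0.21, limma unadjusted p = 0.124, adjusted p = 1.00) in the pulmonary valve. The ranges overlapped in both valves. The aortic value depended on the libraries used. It was -0.88 without the 5 low in Tbx20 (limma unadjusted p = 0.00478, adjusted p = 0.940). In the 6 lowest in skeletal muscle markers it was -1.23, from WT aortic 2 and 4 against mutant aortic 4 alone (99.3).

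Fgfr3, a receptor best known from cartilage, read 10.05, 58.3, 14.4 and 62.5 in WT aortic and 21.4, 55.9, 33.9 and 68.4 in mutant aortic libraries. It read 12.6, 58.0, 44.0 and 65.8 in WT pulmonary and 18.6, 34.4, 31.1 and 73.9 in mutant pulmonary libraries. Its pattern was the reverse of that of Pdgfa. Fgfr3 spanned 58.0 to 73.9 where these markers were lowest and 10.05 to 55.9 in the other 10 libraries, without overlap in that direction, as for 2.6% of genes. The genotype difference was 0.57 (SE 0.62) in the aortic and -0.13 (SE 0.62) in the pulmonary valve. A gene model on the opposite strand, G630022F23Rik, shares 13.9% of the Fgfr3 exon bases and was not analysed here.

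Fgfr4 was the 1 gene of the 10 whose genotypes did not overlap in a valve. At chr13:55152640-55168759 (plus strand, protein coding, GRCm38), it read 11.1, 7.36, 7.71 and 7.19 in WT aortic and 3.09, 3.45, 3.91 and 4.41 in mutant aortic libraries. All 4 mutants lay below all 4 WT libraries, as for 0.824% of all genes tested, and below their litter mate in 4 of 4 pairs, as for 5.03%. No member had all mutants above all WT libraries in that valve (0.759% of genes did), and 0 of the 10 were free of overlap in the pulmonary valve (1.05% of genes lower, 0.938% higher). The log2 difference was -0.98 (SE 0.40, 95% interval -1.82 to -0.13, limma unadjusted p = 0.0256, adjusted p = 1.00), from 22 to 82 reads per library. Without the 5 libraries low in Tbx20 it was -0.75 (limma unadjusted p = 0.196). In the 6 libraries lowest in skeletal muscle markers it was -0.61, with mutant aortic 4 as the only mutant of that valve. With the skeletal muscle or the mesenchyme marker mean as a covariate it was -0.97 and -0.96 (limma unadjusted p = 0.0283 and 0.0285). Neither passed after adjustment. Across the skeletal muscle split the Fgfr4 ranges overlapped, at 4.41 to 8.69 (median 7.18) for the low 6 and 2.32 to 11.6 (median 4.76) for the high 10. Most of the low 6 were WT and most of the high 10 were mutants, so genotype and marker level are mixed in these medians. Among WT libraries alone, the low set read 7.36, 7.19, 6.14 and 8.69 and the high set 11.1, 7.71, 11.6 and 2.32. Among mutants, the low set read 4.41 and 7.16 and the high set 3.09 to 6.84.

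In the pulmonary valve the genotypes overlapped in Fgfr4, with 11.6, 6.14, 2.32 and 8.69 in WT and 5.61, 6.84, 3.50 and 7.16 in mutant libraries. The log2 difference was -0.15 (SE 0.40). The difference between the valves in the genotype effect was 0.83 (SE 0.56, limma unadjusted p = 0.162, adjusted p = 1.00), so it was not shown to differ between them. Over the 10 genes this difference ran from -0.70 to 1.65, and 0 passed, as for 0% of genes (unadjusted p under 0.05 in 0 of the 10, against 1.89% of genes).

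**Figure D4:**
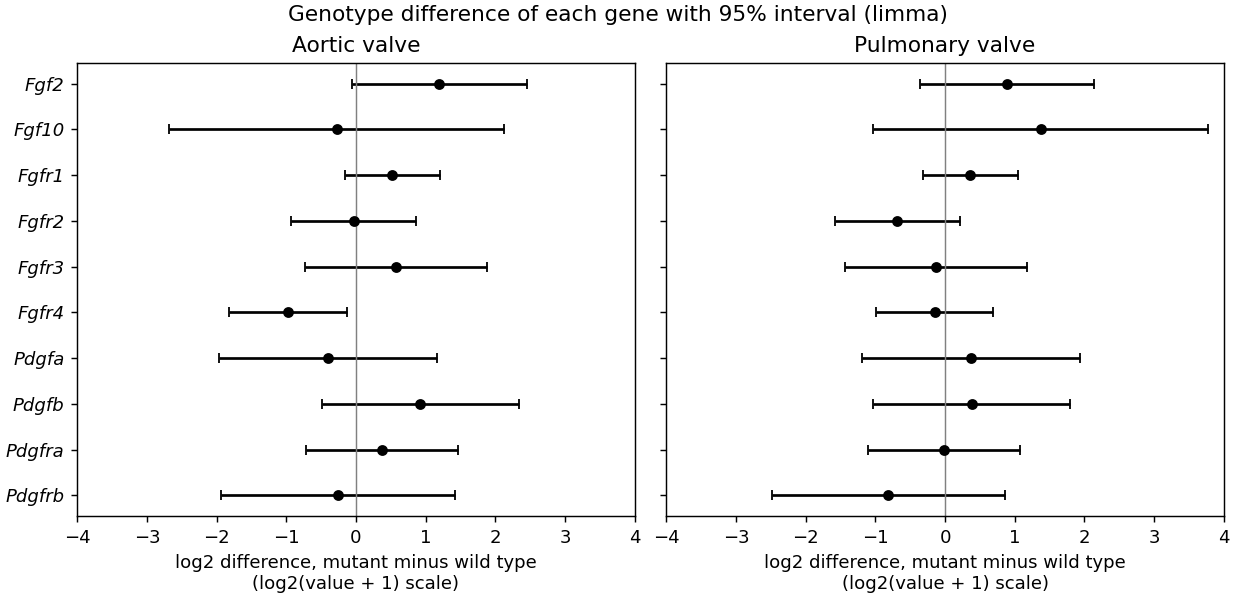
Log2 difference, mutant minus WT, on the log2(value + 1) scale (x axis) for each gene (y axis) with its 95% interval from limma, in the aortic (left) and pulmonary valve (right). The aortic interval of Fgfr4, -1.82 to -0.13, is the 1 interval that leaves out 0.

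Pdgfra, at chr5:75152292-75198215 (plus strand), was the most abundant of the 10 genes. It read 95.5, 340, 99.3 and 322 in WT aortic and 141, 305, 150 and 454 in mutant aortic libraries. It read 91.1, 251, 237 and 208 in WT pulmonary and 81.7, 213, 204 and 306 in mutant pulmonary libraries. Each group held high and low libraries, and the log2 difference between genotypes was 0.37 (SE 0.52) in the aortic and -0.013 (SE 0.52) in the pulmonary valve. The split followed Tbx20, with Pdgfra between 81.7 and 141 where Tbx20 was low (5 libraries) and between 150 and 454 in the other 11.

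Pdgfrb, at chr18:61045150-61085061 (plus strand), spread even more. It read 15.6, 172, 34.2 and 193 in WT aortic, 25.6, 40.4, 69.5 and 123 in mutant aortic, 21.2, 107, 120 and 138 in WT pulmonary and 17.2, 51.0, 35.4 and 121 in mutant pulmonary libraries. Where Tbx20 was low, Pdgfrb lay between 15.6 and 34.2, and in the other 11 libraries between 35.4 and 193. Fgfr3 divided likewise, at 10.05 to 21.4 against 31.1 to 73.9. All 5 libraries below all 11, as in Pdgfra, Pdgfrb and Fgfr3, was seen in 5.33% of genes. These splits were made after the libraries' make-up had been seen and carry no test.

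The genotype difference of Pdgfrb was -0.26 (SE 0.79) in the aortic and -0.82 (SE 0.79) in the pulmonary valve, where the mutant was the lower of 4 of 4 litter pairs, as for 6.9% of genes. The pulmonary value was -0.38 without mutant library 1, -1.29 without mutant library 4, -1.43 without WT library 1 and -0.0069 in the 6 libraries lowest in skeletal muscle markers. Over both valves it was -0.54 (SE 0.56, 95% interval -1.72 to 0.65, limma unadjusted p = 0.352), and for Fgfr2 it was -0.36 (SE 0.30, unadjusted p = 0.247). Without the 5 libraries low in Tbx20, the mean differences were -1.18 for Pdgfrb (unadjusted p = 0.00182) and -0.81 for Fgfr2 (unadjusted p = 0.000413), both with a limma adjusted p of 0.428. Among those 11 libraries, 5 were among the 10 higher in skeletal muscle markers, and 4 of these 5 were mutants. In the 6 lowest in these markers, the limma mean difference was -0.29 for Pdgfrb (unadjusted p = 0.141) and -0.86 for Fgfr2 (unadjusted p = 0.00394, adjusted p = 0.852), from 2 WT libraries and 1 mutant library per valve. The part of muscle RNA in these differences was not tested further.

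**Figure D5:**
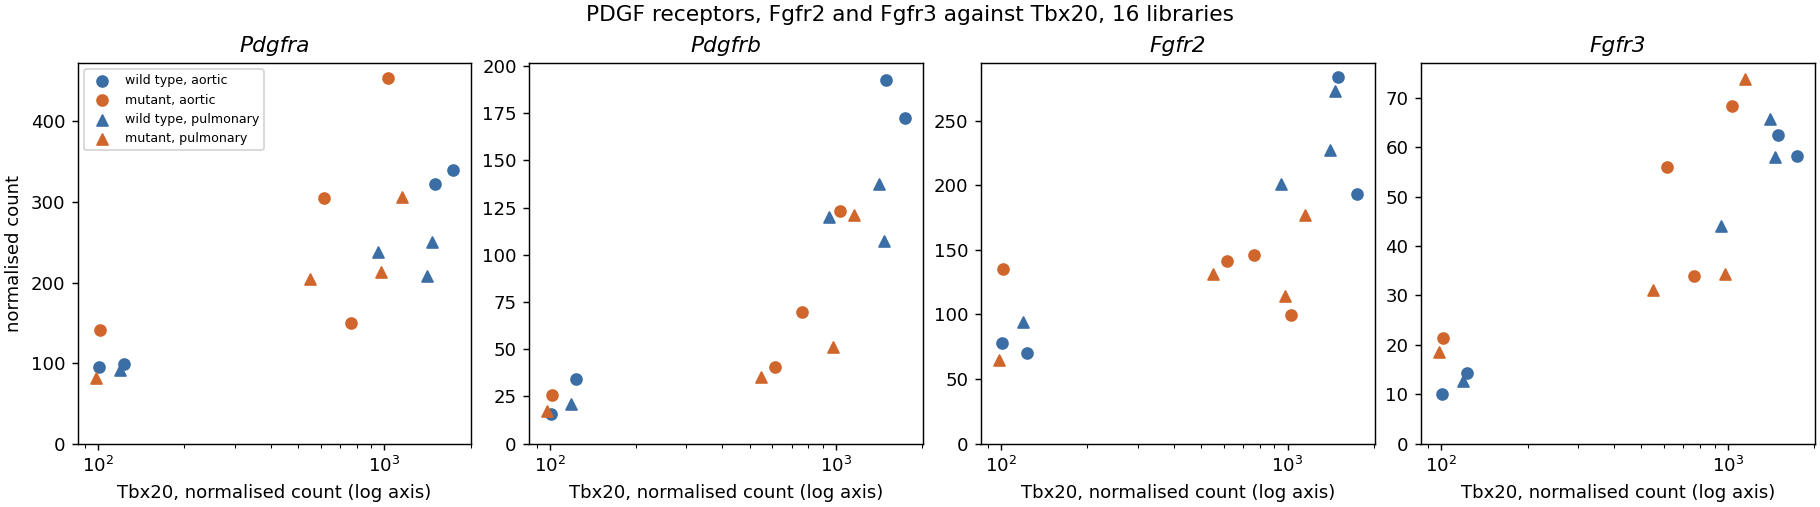
Normalised count (y axis) of Pdgfra, Pdgfrb, Fgfr2 and Fgfr3 in each of the 16 libraries against Tbx20 (x axis, log scale), with genotype as colour and valve as shape. The 5 libraries with Tbx20 at 98.0 to 123 have Pdgfra at 81.7 to 141, Pdgfrb at 15.6 to 34.2 and Fgfr3 at 10.05 to 21.4, all below the other 11.

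Between the valves, 0 of the 10 genes passed (0% of all genes; 0.337% at an unadjusted p under 0.05, with 0 of the 10 among them). The log2 differences, pulmonary minus aortic, ran from -0.62 (Fgf10) to 0.24 (Fgf2). Valve and library batch cannot be told apart.

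The genes with the most similar profiles over the 16 libraries were found for the 6 members with a mean of at least 10, by the root-mean-square difference of centred log2 values among 9450 genes. Nearest to Fgfr1 was Disp1 (0.26), a transporter-like protein that releases Hedgehog ligands, followed by Snai1 (0.29) and Boc (0.32). Nearest to Fgfr2 were the receptor tyrosine kinase gene Axl (0.26), Antxr1 (0.27) and Itm2b (0.28), and nearest to Pdgfra were Hyal2 (0.23), Mfsd1 (0.27) and Cd81 (0.27). Fgfr3 was closest to Gm16344, Lrrc8a and Pigt (0.18 to 0.19). Pdgfa was closest to Capn6 (0.35), Tpm2 (0.43) and Nrk (0.44). Pdgfrb was closest to Shroom1 (0.36), Smad6 (0.38) and Lum (0.39), the gene of the collagen-binding proteoglycan lumican. These profiles share each library's make-up and depth, so the distances are a description.

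Among the other ligands and coreceptors of the FGF system, the 4 with the highest levels were the heparan sulphate genes Sulf1, Gpc3, Sulf2 and Ndst1. Of 34 listed, 19 were tested and 0 passed in either valve. At a limma unadjusted p under 0.05, 2 were called in the aortic valve (1.4% of all genes) and 1 in the pulmonary valve (3.13%). In the aortic valve 15 log2 differences lay above 0 and 4 below (median 0.51; 52.8% of all genes lay above 0), and in the pulmonary valve 10 and 9 (median 0.055; 50.9% of all genes). The heparan sulphate sulfatase Sulf2 was 63.8 ± 21.1 in WT and 110 ± 17.7 in mutant aortic libraries (log2 difference 0.81, limma unadjusted p = 0.0300). Its relative Sulf1 was 143 ± 145 in WT and 212 ± 89.9 in mutant aortic libraries (0.97, unadjusted p = 0.159). In the pulmonary valve Sulf2 was 88.1 ± 38.6 in WT and 89.2 ± 34.0 in mutant libraries, and Sulf1 was 232 ± 141 and 167 ± 88.9 (-0.27). The glypican Gpc3 was 91.0 ± 35.1 in WT and 142 ± 62.5 in mutant aortic libraries, and 111 ± 38.2 in WT and 123 ± 45.5 in mutant pulmonary libraries. In the aortic valve the FGF-binding protein gene Fgfbp3 was 2.87 ± 1.81 and 0.449 ± 0.359 (-1.34, limma unadjusted p = 0.0154), and in the pulmonary valve 1.53 ± 1.21 and 1.33 ± 1.22. In the mutant aortic libraries 3 reads equal 0.371 to 0.470, so the Fgfbp3 mean there rests on very few reads. Fgf12, which encodes an intracellular FGF homologous factor that acts on sodium channels and not a secreted ligand, was 0.472 ± 0.582 in WT and 6.36 ± 5.08 in mutant pulmonary libraries (1.92, limma unadjusted p = 0.0453). Neuron and Schwann cell markers, whose part in this was not tested, summed to 58.6 to 104 in the WT pulmonary libraries. They summed to 506 in mutant pulmonary library 1 and to 83.7 to 89.2 in mutant pulmonary libraries 2 to 4.

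All 17 listed genes of the other PDGF and the VEGF ligands and receptors were tested and 0 passed. In the aortic valve 14 lay above 0 and 3 below (median 0.31; 52.8% of all genes lay above 0). In the pulmonary valve it was 7 and 10 (median -0.16; 50.9% of all genes). The genes of a list share each library's make-up, so their signs are not independent. The VEGF receptor Flt1, an endothelial gene, was the highest of them, between 22.2 and 562 over the libraries. Pdgfc, a second ligand of Pdgfra, was 19.3 ± 5.80 in WT and 26.7 ± 16.4 in mutant aortic libraries, and 15.996 ± 5.30 and 20.2 ± 4.07 in the pulmonary valve. Pdgfd, a ligand of Pdgfrb, was 1.95 ± 1.36 and 4.56 ± 2.18, and 5.42 ± 6.13 and 2.83 ± 2.44. Pgf, a ligand of Flt1, was 20.2 ± 9.69 in WT and 10.2 ± 10.02 in mutant pulmonary libraries (-1.17, limma unadjusted p = 0.146), and 12.2 ± 12.2 and 12.4 ± 5.85 in the aortic valve.

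Feedback genes and targets of FGF signalling, not all of them specific to it, did not pass either: 18 of 20 listed were tested and 0 passed. At a limma unadjusted p under 0.05, 0 were called in the aortic valve (1.4% of all genes) and 1 in the pulmonary valve (3.13%). For the mean of both valves it was 1 (Flrt3, against 2.79%). In the aortic valve 13 of the 18 log2 differences lay above 0 and 5 below (median 0.092, against 52.8% of all genes above 0). In the pulmonary valve it was 15 and 3 (median 0.29, against 50.9% of all genes above 0). Dusp6, the phosphatase of ERK kinases used as a readout of FGF signalling, was 40.1 ± 20.7 in WT and 31.7 ± 10.8 in mutant aortic libraries, and 28.1 ± 12.3 and 37.7 ± 9.28 in the pulmonary valve. Flrt3, a membrane protein that binds FGF receptors, was 27.8 ± 6.81 and 36.2 ± 9.73 in the aortic valve, and 20.007 ± 6.38 and 31.2 ± 6.67 in the pulmonary valve. Its mean log2 difference was 0.50 (SE 0.20, limma unadjusted p = 0.0241). Ccnd1, a cyclin gene and common growth factor target, was the highest of the list, at 139.1 over all libraries.

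All 34 genes of the shared relay were tested, and 0 passed. Their log2 differences were evenly placed, 17 above and 17 below 0 in the aortic valve (median 0.0089) and 18 and 16 in the pulmonary valve (median 0.033). Frs2, the adaptor that couples FGF receptors to Ras, was 78.6 ± 9.39 in WT and 86.4 ± 31.0 in mutant aortic libraries, and 73.5 ± 4.28 and 101 ± 13.6 in the pulmonary valve. Sos1, a Ras activator, had a mean log2 difference of 0.33 (SE 0.14, limma unadjusted p = 0.0336). The kinase Akt1 was 62.2 ± 7.83 in WT and 84.5 ± 10.8 in mutant pulmonary libraries (0.44, limma unadjusted p = 0.0353), and 80.6 ± 19.2 and 78.1 ± 8.41 in the aortic valve (-0.022). Of the 34, 0 had a limma unadjusted p under 0.05 in the aortic valve (1.4% of all genes). It was 1 in the pulmonary valve (Akt1, against 3.13%) and 1 for the mean of both valves (Sos1, against 2.79%).

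The remaining marker lists show what else the cut tissue held. Endothelial and endocardial markers (10 of 10 in the table) summed to 260 to 2404 over the libraries, with Nfatc1 at 66.0 to 512. Cardiomyocyte markers (9 of 10) summed to 143 to 2851, and smooth muscle and pericyte markers (12 of 12), the cells in which Pdgfrb is best known, to 267 to 827. Erythroid markers (9 of 10) summed to 1327 to 41615, neuron and Schwann cell markers (9 of 10) to 31.0 to 506, macrophage markers (8 of 8) to 28.4 to 108 and epithelial markers (6 of 8) to 0.427 to 67.3. Their part in the values of the ligands and receptors was not tested.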

How the data were processed

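RNA of laser-dissected valves was isolated with PicoPure, amplified with Ovation V2 and made into TruSeq libraries, per the labels' protocols. The submitters' processing notes name CASAVA 1.8.2, cutadapt 1.6, FastQC, RSEM 1.2.3 and GRCm38. The deposited table holds a normalised signal per gene and library, called normalised counts here. In each library 100% of values were whole multiples of 1 read (tolerance 0.05 read), and their scaling equalled trimmed-mean (TMM) factors, so they are scaled CPM. RSEM estimates counts, so the recovered reads may be rounded.

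limma 3.58.1 in R 4.3.3 tested log2(value + 1) in 1 model over 16 libraries with a mean per group and a variance trend. Genes had at least 1 in at least 4 libraries (13963). Tests were two-sided, with Benjamini-Hochberg adjustment over all genes and a threshold of 0.05. Fold differences are on that scale and understate changes of low genes. Alternatives were edgeR 4.0.16, DESeq2 1.42.0, other pseudocounts, filters and scalings, marker covariates, litter blocks and libraries left out. Scripts were tested on simulated data. Symbols (13780 of 13964 identifiers), gene models and exon lengths came from GENCODE vM21 on GRCm38.

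The members, lists and tests were chosen with earlier results of these data known. Named were all 10 members, genes of each pathway list chosen by mean level and smallest unadjusted p, the highest genes of each marker list, the nearest profiles and Jag1. To limit length, not all of those are printed, and that choice followed the values. The splits by skeletal muscle markers and Tbx20 were chosen after seeing the data. Same-numbered libraries of a valve share a litter per the labels, so they are pairs. Their deviations from the group means correlated at 0.01 to 0.64 over the 4 aortic pairs, and at -0.03 to 0.49 over the 4 pulmonary pairs.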

Additional observations from a re-analysis of the deposited data

Results flagged for a closer look

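Of 40 groups of 4 values (10 genes in 4 groups), 2 had a library far from the other 3, and chance flags about 1 in 20 groups. Fgf2 was 3.51 in WT aortic library 4, against 0.940 to 1.22 in the other 3. Fgfr4 was 11.1 in WT aortic library 1, against 7.19 to 7.71 in the other 3. Both concern the WT aortic group. For Fgfr4, WT aortic library 1 was the highest of its group, so leaving it out could not make the genotypes overlap. The aortic log2 difference of Fgfr4 without it was -0.84 (limma unadjusted p = 0.0716).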

How the results depend on the processing

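For the 26 member results, 750 values were computed under alternative settings: 709 kept their direction, 41 turned, and 0 passed the threshold (lowest limma adjusted p 0.428). Many of the 750 could not turn. Litter blocks and other filters leave a difference as it is, and so does leaving out a library of the other valve for a difference within 1 valve. The 709 are therefore no measure of robustness. The count of genes past the threshold, 0 in each comparison, became 2 in the pulmonary valve and 5 for the mean of both valves with DESeq2. With the litter as a replicate block it was 2 for the mean of both valves, and the block changed no other call. With the skeletal muscle or the mesenchyme marker mean as a covariate it was 2 each for that mean. In the 6 libraries lowest in muscle markers it was 3 (aortic), 1 (pulmonary) and 3 (mean of both). Leaving out 1 library gave 0 to 2 in the aortic valve (2 without WT aortic library 4) and 0 to 3 for the mean of both valves (3 without WT aortic library 4, 2 without WT pulmonary library 2). None of these genes was a member, and the cause was not tested.

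The directions that turned belonged to differences within 1 SE of 0, and the cause was not tested. Without the 5 libraries low in Tbx20 the log2 difference was 0.38 for Fgf10, -0.25 for Fgfr3, 0.30 for Pdgfa and -0.27 for Pdgfra in the aortic valve, and 0.11 for Fgfr4, -0.068 for Pdgfb and 0.035 for Pdgfra in the pulmonary valve. With the muscle covariate it was 0.016 for Fgfr2 in the aortic valve and 0.16 for Fgfr3, -0.034 for Pdgfa and 0.22 for Pdgfra in the pulmonary valve. With the mesenchyme covariate the pulmonary values were 0.094 for Fgfr3 and 0.17 for Pdgfra. In the 6 libraries lowest in muscle markers they were 0.25 for Fgfr3, -0.78 for Pdgfa and 0.42 for Pdgfra, and Fgf10 gave no value, being at 0 in all 3 pulmonary libraries. Pdgfra in the pulmonary valve was 0.025 with quantile scaling, 0.032 with edgeR and 0.041 with DESeq2.

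Leaving out each library in turn, the aortic difference ran from -1.19 to 0.54 for Fgf10, -0.33 to 0.33 for Fgfr2, -0.75 to 0.23 for Pdgfa and -0.92 to 0.26 for Pdgfrb. The pulmonary difference ran from -0.65 to 0.16 for Fgfr3, -0.53 to 0.11 for Fgfr4, -0.019 to 1.02 for Pdgfa, -0.15 to 0.75 for Pdgfb and -0.35 to 0.37 for Pdgfra. The aortic Fgfr4 difference ran from -1.04 to -0.84 and the mean Fgf2 difference from 0.75 to 1.22.

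The fit pools the spread over groups, so a lone library is assumed to vary like the others. Fgf2 and Fgfr4 rest on under 90 reads per library.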

Other observations

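Within-library ratios per kb of exon were computed for 3 pairs of these genes after the values had been seen. In the pulmonary valve the ratio of Fgfr2 to Fgfr1 was 2.16 to 4.84 in WT and 1.35 to 1.45 in mutant libraries. An exact two-sided permutation test over 70 assignments gave p = 0.0286, the smallest it can give, and 0.171 after adjustment over 6 tests. That test sets the litter pairs aside. Exchanging genotypes within the 4 litter pairs (16 assignments, exact permutation) gave p = 0.125, the smallest that test can give. In the aortic valve the ratio was 0.87 to 3.68 in WT and 0.899 to 2.03 in mutant libraries (exact permutation p = 0.314). The ratio of Pdgfra to Pdgfrb had a geometric mean of 1.28 in WT and 2.26 in mutant pulmonary libraries (exact permutation p = 0.0857, adjusted 0.257) and 1.51 and 2.33 in the aortic valve (p = 0.314). The ratio of Pdgfa to Pdgfb ranged from 0.150 to 46.6 over the libraries, and its exact permutation p was 0.429 in the aortic and 0.914 in the pulmonary valve. Within litter pairs, the exact permutation p of the other 5 ratio tests was 0.125 to 0.875.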
